A study of Homo sapiens with 12 samples.

Results

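MicroRNA genes give rise to long primary transcripts, which are cut in the nucleus to a hairpin and in the cytoplasm to a mature RNA that guides Argonaute proteins to target messages. Bases 2 to 8 of the mature RNA, the seed, set most of the target choice, so microRNAs with one seed are counted as a family. Many microRNA hairpins lie in introns of protein-coding or long noncoding host genes or share one primary transcript with their neighbours. The described set is the 361 microRNA genes whose probe set lay above the median of all probe sets of an array on at least 9 of the 12 arrays. They were taken from 1072 microRNA genes with a named probe set, among 14884 named genes in all. The members were chosen by their RMA signal on the 12 arrays, so their levels are a description here. The comparisons between groups were not part of the choice, except that a gene near the array median on some groups could enter through the others. Only MIR3671, on 0 of 3 arrays of HSC-1 with DMSO, and MIR3193, on 0 of 3 arrays of HSC-1 with everolimus, lay at or below the array median throughout a group.

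RNA was measured in 2 established cell lines from human squamous cell carcinoma of the skin, A431 and HSC-1, each kept with the vehicle DMSO or with 100 nM everolimus for 72 h. Everolimus is a rapamycin analogue that inhibits mTOR complex 1. Each of the 4 groups had 3 arrays, and the series title concerns genes tied to everolimus resistance, with no label that calls either line resistant. Both lines and treatments share a medium with serum at 10 or 20%, a level the labels do not tie to a line. Whether arrays within a group stem from independent cultures is not labelled, and p-values then cover no more than the spread among these arrays, possibly a technical one.

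Array medians lay between 4.34 and 4.39 on the log2 scale, and the correlation between arrays within a group was 0.989 to 0.9916. All 9 squamous keratinocyte markers with a named probe set, KRT5, KRT14 and DSG3 among them, lay above the array median on all 12 arrays. The endothelial markers PECAM1, VWF and KDR, the melanocyte markers MLANA, TYR and TYRP1, the leukocyte marker LYZ and the fibroblast marker DCN did so on 0 arrays. MITF, SOX10 and CD68 lay above it on all 12, PMEL on 1, CD2 on 3 and CD14 on 5. The other named fibroblast marker, LUM, lay above it on 6 arrays, all of A431. LUM read 4.84 to 5.04 there and 2.43 to 2.95 in HSC-1. The summed level of the fibroblast list was 5.05 to 5.25 in A431 and 3.31 to 3.61 in HSC-1, and that of the leukocyte list 10.54 to 10.77 and 7.99 to 8.26 (log2). Most of the leukocyte sum was CD68, which by itself read 10.49 to 10.73 in A431 and 7.72 to 8.02 in HSC-1. The part of either list in the differences between the lines was not tested.

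The labelled cDNA was made from total RNA with a whole-transcript kit, and the files used here do not say which stretch of RNA each probe set reads. A value may therefore stem from the primary transcript, the hairpin or the host transcript, which was not tested, and it is not taken here as a level of the mature microRNA. The mature sequences of the families on which the results turn are given from RefSeq on GRCh38.p14, 5′ to 3′, with the seed in capitals. The first group are the products of the 2 clusters of miR-23, miR-27 and miR-24.
hsa-miR-23b-3p: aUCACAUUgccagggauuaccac
hsa-miR-23a-3p: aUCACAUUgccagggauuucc
hsa-miR-27b-3p: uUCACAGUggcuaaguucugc
hsa-miR-27a-3p: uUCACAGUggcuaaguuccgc
hsa-miR-24-3p: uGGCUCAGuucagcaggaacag

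Counted from base 1 at the 5′ end of the first-named RNA, miR-27b-3p and miR-27a-3p differ by the substitution U19C, and miR-23b-3p and miR-23a-3p differ by A19U over their shared length of 21 bases. The MIR23B and MIR27B hairpins lie 140 bases apart on the plus strand of chromosome 9, with MIR24-1 another 479 bases on. MIR23A, MIR27A and MIR24-2 lie on the minus strand of chromosome 19, 69 and 80 bases apart. The next group holds the neighbours MIR221 and MIR222, whose hairpins are 748 bases apart on the minus strand of chromosome X and whose 3p RNAs share the seed GCUACAU.
hsa-miR-221-3p: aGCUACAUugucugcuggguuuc
hsa-miR-222-3p: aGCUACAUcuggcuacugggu

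The remaining sequences belong to single genes described further on: the epithelial miR-205, let-7i beside the family's let-7a, miR-21, miR-31, miR-33b, miR-3671 and miR-3936.
hsa-miR-205-5p: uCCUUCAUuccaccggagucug
hsa-let-7i-5p: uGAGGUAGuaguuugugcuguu
hsa-let-7a-5p: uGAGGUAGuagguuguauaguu
hsa-miR-21-5p: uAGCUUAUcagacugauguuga
hsa-miR-31-5p: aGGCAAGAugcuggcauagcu
hsa-miR-33b-5p: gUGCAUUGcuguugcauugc
hsa-miR-3671: aUCAAAUAaggacuagucugca
hsa-miR-3936: uAAGGGGUguauggcagaugca

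let-7i-5p differs from let-7a-5p at U12G, G17A, C18U and U19A, all outside the seed. The MIR23B and MIR27B hairpins (chr9:95085208-95085304 and chr9:95085445-95085541, plus strand) are shown with both mature arms in capitals, since these 2 genes had the smallest p-values in HSC-1 among the members.
MIR23B hairpin: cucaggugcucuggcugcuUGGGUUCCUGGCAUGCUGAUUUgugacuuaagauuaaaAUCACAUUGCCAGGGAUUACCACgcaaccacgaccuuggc
MIR27B hairpin: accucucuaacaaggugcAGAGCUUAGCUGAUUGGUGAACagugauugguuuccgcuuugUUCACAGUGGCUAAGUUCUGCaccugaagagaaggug

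Of the 361 members, 303 lay above the array median on all 12 arrays, while 588 of the 1072 microRNA genes did so on 0 arrays. Mean signal over the arrays ran from 4.44 to 10.25 (log2) with a median of 5.66. The 8 highest mean signals were those of MIR4737 (10.25), MIR205 (10.03), MIR3143 (8.61), MIR4442 (8.55), MIR574 (8.43), MIR570 (8.32), MIR3619 (8.21) and MIR3907 (8.21), an order of probe set signals and not of RNA amounts. Just inside the rule, each on 9 arrays, were MIR103A2 at 4.44, MIR4681 at 4.50 and MIR4675 at 4.54. Just outside it, on 8 arrays, were MIR591 at 4.93, MIR424 at 4.73 and MIR3975 at 4.68. Of the members, 53 had several probe sets, and the one with the highest mean was used.

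Base composition went with signal. The hairpins of 299 members had a median G and C content of 57.5% (27.3 to 80.0%), and those of 585 other microRNA genes 44.8% (21.1 to 77.5%). Over the 884 genes, mean signal and hairpin G and C content correlated at a Pearson r of 0.58. It was 0.49 within the 585 other genes and 0.16 within the members. The members were chosen by signal, which narrows its range within each part, so the lower values there cannot be set against the 0.58. These points share arrays and probe chemistry, and the part of base composition in any level was not tested.

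**Figure D1:**
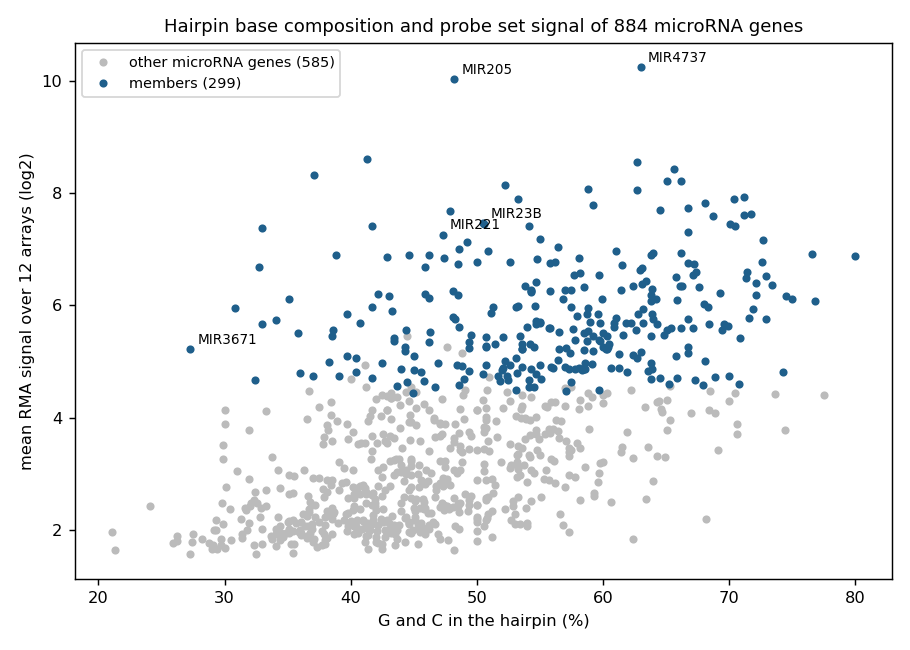
Mean RMA signal over 12 arrays (log2, vertical) against the share of G and C in the RefSeq hairpin (percent, horizontal) for 884 microRNA genes, members in blue. Members have a median of 57.5% G and C and the other genes 44.8%, while MIR3671, at 27.3%, is the member with the lowest share.

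Everolimus changed few microRNA genes past the threshold, an adjusted p of at most 0.05 over the 10613 genes tested. In A431, 7 of 361 members passed it, 3 higher and 4 lower, or 1.94% of members beside 6.73% of all tested genes (2.39% higher and 4.33% lower). In HSC-1, 29 members passed, 23 higher and 6 lower. That is 8.03% of members beside 18.6% of all tested genes. The higher members made up 6.37% beside 7.34% of tested genes, and the lower ones 1.66% beside 11.3%. At an unadjusted p under 0.05 the counts were 43 in A431 and 68 in HSC-1. The median difference over the members was 0.022 in A431 and 0.040 in HSC-1, beside -0.0038 and -0.021 over all tested genes. The members' values were also less precise, with a median standard error (SE) of a log2 difference of 0.13 beside 0.09 over all tested genes.

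**Figure D2:**
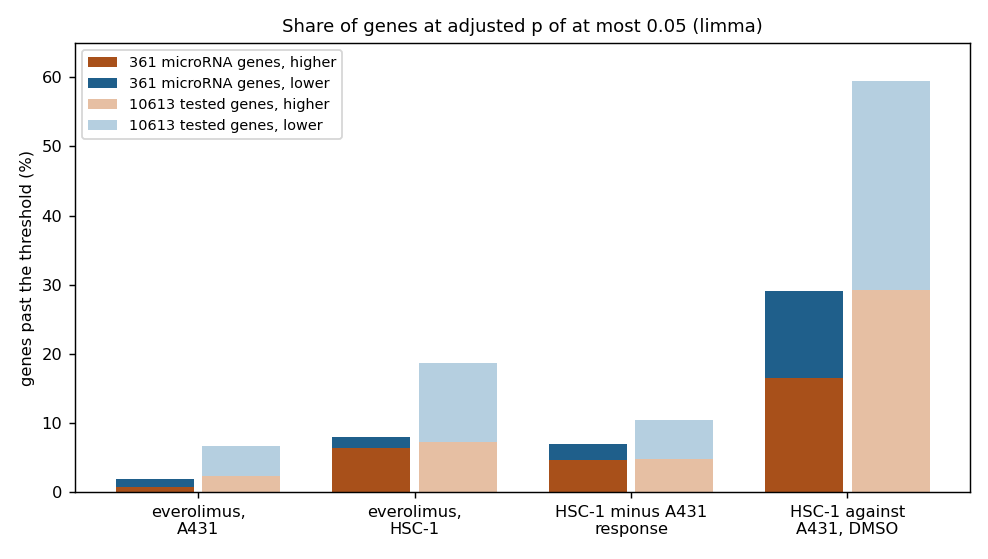
Percentage of genes past an adjusted p of 0.05 in each of 4 comparisons, stacked as higher and lower, for the 361 members (dark bars) and the 10613 tested genes (pale bars). The members' share was below that of all tested genes in all 4 comparisons, for example 1.94% beside 6.73% in A431 and 8.03% beside 18.6% in HSC-1.

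The clearest response in HSC-1 was that of the miR-23b and miR-27b cluster, of which miR-23b is known from keratinocyte differentiation and miR-27 from lipid metabolism. MIR23B signals in HSC-1 were 7.66, 7.67 and 7.71 with DMSO and 8.80, 8.88 and 8.62 with everolimus. All 3 treated arrays lay about 1 log2 unit above all 3 controls, and the difference was 1.09 ± 0.07 (SE, 3 arrays against 3, adjusted p = 3.79e-09), or 2.12-fold. In A431 the same probe set read 6.71, 6.63 and 6.68 with DMSO and 6.78, 6.65 and 6.83 with everolimus. Those groups overlapped (0.08 ± 0.07, adjusted p = 0.578).

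MIR27B followed the same pattern. It read 7.34, 7.28 and 7.35 in HSC-1 with DMSO and 8.31, 8.14 and 8.07 with everolimus, a rise of 0.85 ± 0.08 with no overlap (adjusted p = 7.04e-07). In A431 its values were 5.76, 6.08 and 5.86 with DMSO and 6.01, 6.0 and 6.0 with everolimus, which overlapped (0.11 ± 0.08, adjusted p = 0.539). The difference between the lines' responses passed the threshold for both genes, at 1.01 ± 0.09 for MIR23B (adjusted p = 2.01e-06) and 0.75 ± 0.11 for MIR27B (adjusted p = 2.98e-04). The third gene of the cluster, MIR24-1, is no member: its mean signal was 2.44 and it lay above the array median on 0 arrays.

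Of the second copy of that cluster, on chromosome 19, only MIR27A passed under everolimus, in HSC-1. MIR27A, which shares the seed UCACAGU with MIR27B, read 5.19, 5.25 and 5.27 in HSC-1 with DMSO and 5.71, 5.77 and 5.81 with everolimus. The 2 groups did not overlap, and the rise was 0.53 ± 0.11 (adjusted p = 0.00267). Its difference was 0.03 ± 0.11 in A431 (adjusted p = 0.926), and the test between the lines gave 0.50 ± 0.16 (adjusted p = 0.0545). MIR24-2 passed in neither line, with -0.32 ± 0.09 in A431 (adjusted p = 0.053) and 0.23 ± 0.09 in HSC-1 (adjusted p = 0.102), but the difference between the responses did (0.55 ± 0.13, adjusted p = 0.0125). MIR23A, above the array median on 6 arrays and so no member, differed by 0.47 ± 0.18 in HSC-1 (adjusted p = 0.0838).

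MIR221 and MIR222, a pair whose products are known to target the cell cycle inhibitor p27, rose together in HSC-1. MIR222 read 6.15, 6.43 and 6.46 with DMSO and 7.43, 7.37 and 7.06 with everolimus. No treated array came as low as a control, and the rise was 0.94 ± 0.10 (adjusted p = 2.02e-06), or 1.92-fold. For MIR221 the arrays read 7.01, 6.95 and 6.98 with DMSO and 7.74, 7.63 and 7.24 with everolimus, again without overlap. Its rise was 0.56 ± 0.09 (adjusted p = 3.93e-04). In both genes the third everolimus array was the lowest of its group. In A431 the differences were 0.04 ± 0.10 for MIR222 (adjusted p = 0.879) and 0.07 ± 0.09 for MIR221 (adjusted p = 0.751), with overlapping arrays. The responses of the lines differed by 0.90 ± 0.14 for MIR222 (adjusted p = 3.02e-04) and 0.48 ± 0.13 for MIR221 (adjusted p = 0.0258).

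MIR3671 entered the set through the groups in which it was high, so its difference in HSC-1 is not ranked among the members. It read 3.52, 3.20 and 4.10 with DMSO, all below the array median, and 5.02, 5.01 and 5.20 with everolimus, all above it. The fitted difference was 1.47 ± 0.25 (adjusted p = 4.01e-04), and its size rests on DMSO values below the level limit. A second probe set gave 1.56, with nearly the same values on each HSC-1 array. These were 3.59, 3.20 and 3.94 with DMSO and 5.09, 5.06 and 5.24 with everolimus, so it is not taken as separate support. In A431 the values were 6.62, 6.0 and 6.04 with DMSO and 6.29, 5.24 and 6.38 with everolimus, an overlap with 1 low treated array (-0.25 ± 0.25, adjusted p = 0.662). The gene lies in JAK1, a kinase of cytokine receptors, whose own difference in HSC-1 was 0.12 ± 0.05 (adjusted p = 0.115). Its neighbour MIR101-1, 591 bases away on the same strand, had a mean of 3.0 and lay above the array median on 0 arrays.

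**Figure D3:**
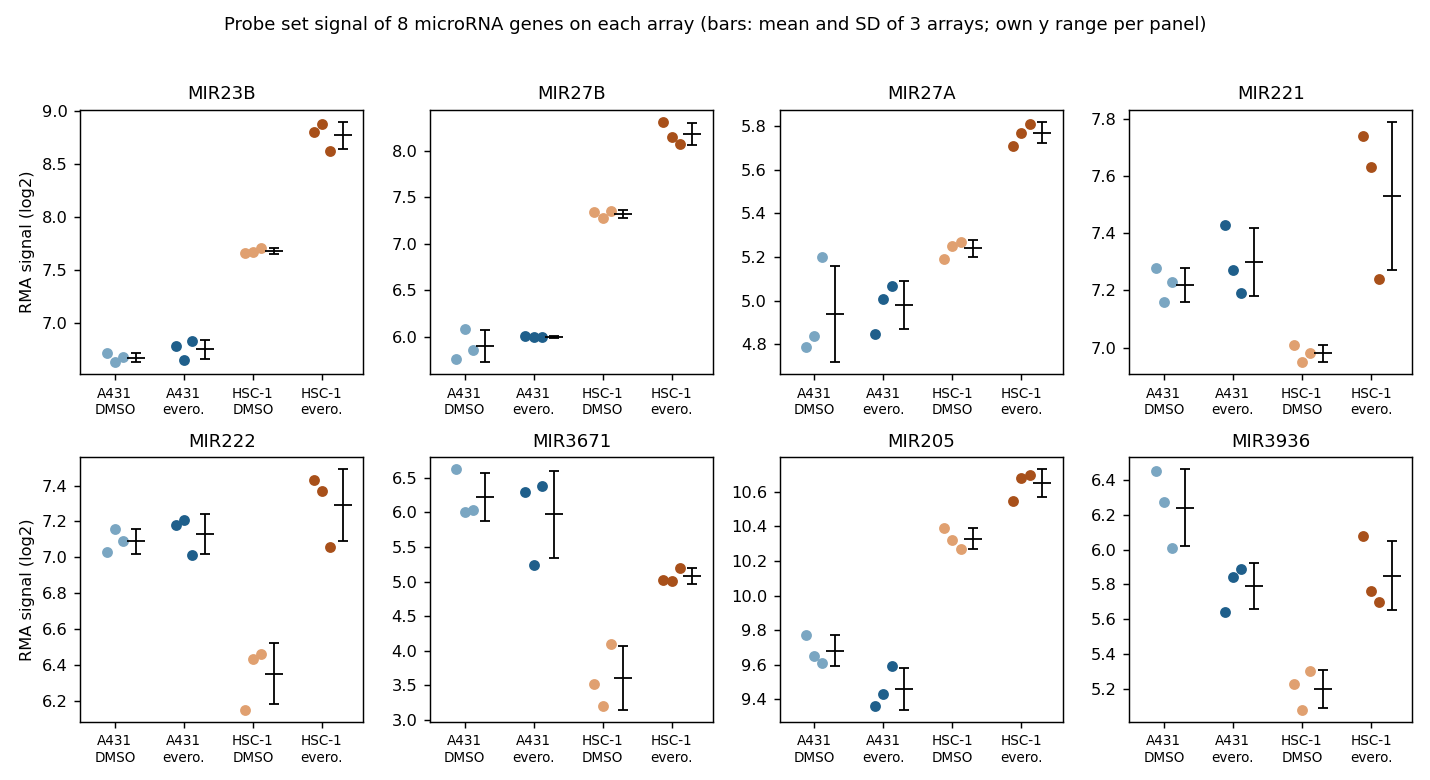
RMA signal (log2, vertical, each panel with its own range) of 8 microRNA genes on the 12 arrays, by line and treatment, with the mean and SD of 3 arrays beside the points. In HSC-1 the everolimus arrays lie above the DMSO arrays in all 8 panels, while in A431 only MIR205 and MIR3936 separate, with everolimus below DMSO.

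MIR205 and MIR3936 were the only members past the threshold in both lines, and each went down in A431 and up in HSC-1. miR-205 is an abundant microRNA of stratified epithelia. MIR205 in A431 read 9.77, 9.65 and 9.61 with DMSO and 9.36, 9.43 and 9.59 with everolimus, with groups just apart. That fall was 0.22 on the log2 scale (-0.22 ± 0.06, adjusted p = 0.0287). In HSC-1 it read 10.39, 10.32 and 10.27 with DMSO and 10.55, 10.68 and 10.70 with everolimus, a rise of 0.32 ± 0.06 without overlap (adjusted p = 7.07e-04). The responses differed by 0.53 ± 0.08 (adjusted p = 3.03e-04).

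MIR3936, in its long noncoding host MIR3936HG, read 6.45, 6.27 and 6.01 in A431 with DMSO and 5.64, 5.84 and 5.89 with everolimus. The groups did not overlap, and the difference was -0.45 ± 0.12 (adjusted p = 0.0289). In HSC-1 it read 5.23, 5.08 and 5.30 with DMSO and 6.08, 5.76 and 5.70 with everolimus, a rise of 0.65 ± 0.12 (adjusted p = 9.54e-04). With everolimus the ranges of the 2 lines overlapped, at 5.64 to 5.89 in A431 and 5.70 to 6.08 in HSC-1. The difference between the responses was 1.10 ± 0.17 (adjusted p = 3.68e-04).

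The other A431 calls were small. MIRLET7I, one of 7 members that carry the let-7 seed GAGGUAG, read 5.94, 5.76 and 5.69 with DMSO and 5.27, 5.42 and 5.42 with everolimus, without overlap (-0.42 ± 0.12, adjusted p = 0.0366). let-7 RNAs are known to repress RAS and other growth genes. None of the other 6 let-7 seed genes (MIRLET7A1, MIRLET7A3, MIRLET7D, MIRLET7E, MIR98 and MIR4458) passed in A431 or HSC-1, with values from -0.17 to 0.22 in A431. MIR3132, in OBSL1, read 5.16, 5.10 and 5.27 with DMSO and 4.68, 4.49 and 4.70 with everolimus (-0.55 ± 0.15, adjusted p = 0.0354). MIR197, which shares the seed GGGUAGA with MIR3132 through its 5p arm, differed by 0.21 ± 0.15 (adjusted p = 0.488).

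The 3 members that rose in A431 were MIR3939, MIR4746 and MIR5047. MIR3939 went from 6.80, 6.84 and 6.82 to 7.26, 7.20 and 7.35 (0.45 ± 0.11, adjusted p = 0.0161). MIR4746, in the chromatin assembly gene CHAF1A, went from 6.17, 5.77 and 6.22 to 6.47, 6.44 and 6.48, with 1 low control (0.41 ± 0.10, adjusted p = 0.0121). MIR5047 went from 8.62, 8.54 and 8.46 to 8.72, 8.73 and 8.89 (0.24 ± 0.06, adjusted p = 0.0281). In all 7 genes called in A431 the arrays of the 2 groups did not overlap, as in 12.2% of members and 24.5% of all tested genes. Choosing genes by their difference against the spread favours such a gap by itself, so no result is drawn from it. The 7 calls depended on single arrays. Leaving out 1 array at a time gave 2 to 12 called members. The count was 2 without the first DMSO array of A431, 3 without the second, 12 without the third, 3 without the first everolimus array, 4 without the second and 11 without the third. Each of the 7 was lost under at least 1 of 21 alternative fits at the same threshold, MIR4746 only without the second DMSO array (adjusted p = 0.062). Outside those 21, the count was 0 at an adjusted p of 0.01 and 0 with a 1.5-fold change. It was 1 with every probe set fitted by itself. MIR3939 reached an adjusted p of 0.0627 and MIR5047 one of 0.121 without the third everolimus array. MIR3132 reached 0.138 without the second everolimus array, and MIR205 reached 0.152 without the first. MIR3936 (0.156) and MIRLET7I (0.165) had their highest adjusted p without the first DMSO array.

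Among the other members that rose in HSC-1, MIR33B lies in SREBF1, the gene of a lipid synthesis factor, and is known to target cholesterol export. It read 6.40, 6.69 and 6.24 with DMSO and 7.22, 6.78 and 6.86 with everolimus, just without overlap (0.51 ± 0.12, adjusted p = 0.00527). MIR21, a microRNA often raised in tumours, read 7.11, 7.03 and 7.23 with DMSO and 7.51, 7.44 and 7.34 with everolimus. Its groups did not overlap (0.31 ± 0.08, adjusted p = 0.00754), and its difference in A431 was 0.10 ± 0.08 (adjusted p = 0.549). For neither gene did the difference between the lines pass (adjusted p = 0.0535 for MIR33B and 0.248 for MIR21).

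MIR548H2 rose by 0.73 ± 0.13 in HSC-1 (6.30, 6.38 and 6.61 against 7.16, 7.22 and 7.11, adjusted p = 6.54e-04), with groups well apart. MIR3925 rose by 0.63 ± 0.16 (adjusted p = 0.0108) and MIR3186 by 0.52 ± 0.11 (adjusted p = 0.00358). MIR1269B rose by 0.47 ± 0.14 (adjusted p = 0.0293) with overlapping arrays. The other 9 members that rose, by 0.25 to 0.45, were MIR570, MIR4453, MIR604, MIR4525, MIR612, MIR1296, MIR421, MIR644A and MIR4663. Arrays of the 2 groups did not overlap in 26 of the 29 genes called in HSC-1, as in 16.1% of members and 33.3% of all tested genes. As in A431, the choice of genes favours such a gap, and no result is drawn from it.

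The 6 members that fell in HSC-1 belonged to no shared cluster or seed family. MIR3193 entered the set through the other groups, and the size of its fall rests on values below the level limit. It read 4.55, 4.67 and 4.37 with DMSO and 3.22, 4.02 and 3.94 with everolimus, all 3 treated arrays below the array median (-0.80 ± 0.19, adjusted p = 0.00541). MIR622 read 6.90, 6.96 and 6.75 with DMSO and 6.50, 6.43 and 6.57 with everolimus, without overlap (-0.37 ± 0.08, adjusted p = 0.00187). MIR4653 (-0.40 ± 0.12), MIR4521 (-0.36 ± 0.08), MIR3159 (-0.29 ± 0.09) and MIR2909 (-0.28 ± 0.06) fell less, with adjusted p from 0.00173 to 0.0298. For MIR2909 a second probe set gave 0.11, the opposite sign, and for MIR4521 a second probe set that lay above the array median on 0 arrays gave -0.03. Averaged over their probe sets, MIR2909 (adjusted p = 0.472), MIR4521 (adjusted p = 0.277) and MIR4653 did not pass. That setting kept 3 of the 6 falls. Of the 18 members named for HSC-1, the 12 with the greatest rises and the 6 that fell, 12 passed under all 21 alternatives. Among them were MIR23B, MIR27B, MIR221, MIR222 and MIR27A. MIR3671 and MIR3193 were also among the 12, each with a group below the array median. Leaving out single arrays of HSC-1 ended the calls of 4. The highest adjusted p was 0.0594 for MIR3925 without the third DMSO array, 0.154 for MIR1269B and 0.136 for MIR3159 without the second DMSO array, and 0.139 for MIR4653 without the third everolimus array.

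**Figure D4:**
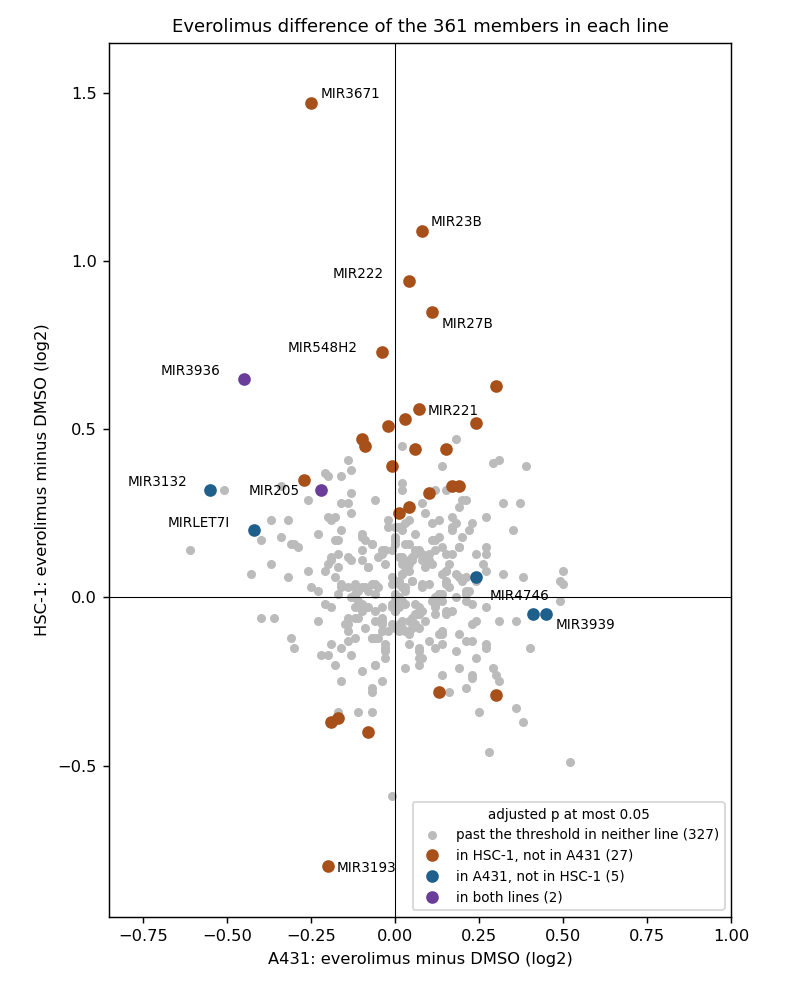
Everolimus minus DMSO (log2) of each of the 361 members in A431 (horizontal) and HSC-1 (vertical), coloured by whether the adjusted p was at most 0.05 in neither line (327), in HSC-1 (27), in A431 (5) or in both (2). The 2 genes past the threshold in both lines, MIR205 and MIR3936, lie in the upper left, lower in A431 and higher in HSC-1.

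The difference between the responses, HSC-1 minus A431, passed the threshold for 25 members, 17 above 0 and 8 below, or 6.93% of members beside 10.5% of all tested genes (4.84% above 0 and 5.69% below). The count at an unadjusted p under 0.05 was 61. Of the 25, 21 had effects of opposite sign in the 2 lines, which choosing genes by this difference favours by itself. The share over all tested genes is not given here, so no result is drawn from the 21. Of these 25, everolimus passed the threshold in both lines for 2 (MIR205 and MIR3936), in HSC-1 but not A431 for 10, in A431 but not HSC-1 for 4, and in neither for 9. The most negative differences were those of MIR3928 (-0.74 ± 0.22, adjusted p = 0.0346), MIR648 (-0.69 ± 0.18, adjusted p = 0.0185) and MIR924 (-0.59 ± 0.18, adjusted p = 0.0366). MIR3159 also differed by -0.59 (± 0.13, adjusted p = 0.00536), at 0.30 in A431 and -0.29 in HSC-1. Of these 4, only MIR3159 passed under all 21 alternatives. MIR648 was lost without the second DMSO array of A431 or of HSC-1 (highest adjusted p = 0.0579), MIR3928 reached 0.095 without the second everolimus array of HSC-1, and MIR924 reached 0.101 without the second DMSO array of HSC-1.

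In DMSO the lines differed in 105 members, 60 higher in HSC-1 and 45 lower, or 29.1% of members beside 59.4% of all tested genes (29.2% higher and 30.2% lower). Of these, 17 had several probe sets. In 4 of the 17 (MIR3160-1, MIR3190, MIR486-1 and MIR642A) another probe set gave the opposite sign. MIR548K, in PPFIA1, had the greatest gap, at 8.07, 7.94 and 7.96 in A431 and 4.54, 4.55 and 5.05 in HSC-1 (-3.27 ± 0.13, adjusted p = 1.58e-13). The A431 arrays all lay about 3 log2 units above those of HSC-1, and everolimus moved it past the threshold in neither line. In the other direction MIR1299 read 6.21, 5.83 and 6.10 in A431 and 8.73, 8.74 and 8.51 in HSC-1 (2.61 ± 0.11, adjusted p = 2.63e-13). Next above 0 came MIR27B (1.42 ± 0.08), MIR579 (1.36 ± 0.13), MIR4653 (1.34 ± 0.12), MIR4521 (1.04 ± 0.08), MIR23B (1.01 ± 0.07), MIR575 (0.87 ± 0.13) and MIR571 (0.85 ± 0.07). Next below 0 came MIR3193 (-1.48 ± 0.19), MIR421 (-1.16 ± 0.11), MIR604 (-1.16 ± 0.11), MIR644A (-1.12 ± 0.08), MIR31 (-1.09 ± 0.14) and MIR3936 (-1.04 ± 0.12). MIR3671, below the array median on all 3 HSC-1 arrays of this comparison, had a fitted difference of -2.62 ± 0.25. The HSC-1 values of MIR3193 with DMSO lay close to the array median, so the size of its difference rests on values near the level limit. The arrays of the 2 lines did not overlap in 90 of the 105, as in 30.5% of members and 65.3% of all tested genes. Here too the choice of genes favours such a gap by itself.

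Several of these genes belong to known epithelial or tumour families. MIR31, whose product is raised in many squamous tumours, read 6.15, 6.22 and 5.96 in A431 and 5.04, 5.00 and 5.01 in HSC-1. MIRLET7I was lower in HSC-1 by 1.03 (-1.03 ± 0.12, adjusted p = 3.68e-07), whereas MIRLET7D (0.44 ± 0.14, adjusted p = 0.0128) and MIR4458 (0.57 ± 0.14, adjusted p = 0.00196) were higher and MIRLET7A3 lower (-0.62 ± 0.09, adjusted p = 6.77e-06). MIR205 was higher in HSC-1 by 0.65 ± 0.06 (adjusted p = 1.08e-08). MIR200C (-0.54 ± 0.14, adjusted p = 0.00325) and MIR141 (-0.40 ± 0.14, adjusted p = 0.0188), neighbours that mark the epithelial state, were both lower. MIR222 (-0.74 ± 0.10) and MIR221 (-0.25 ± 0.09) were lower in HSC-1 under DMSO, with adjusted p of 1.87e-06 and 0.0319.

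In the 17 clusters of members within 10 kb on one strand, which hold 42 members, neighbours could be set side by side. All 3 members of the MIR25, MIR93 and MIR106B cluster, which lies in the replication gene MCM7, were higher in HSC-1. MIR25 read 6.06, 6.39 and 6.09 in A431 and 7.09, 7.05 and 6.89 in HSC-1 (0.83 ± 0.10, adjusted p = 3.53e-07). MIR93 differed by 0.53 ± 0.13 (adjusted p = 0.00141) and MIR106B by 0.47 ± 0.13 (adjusted p = 0.0043), and MCM7 itself by 1.35 ± 0.05 (adjusted p = 1.27e-14). None of the 3 passed under everolimus in either line. Of the 326 members with a RefSeq mature sequence, 65 shared 1 of 29 seeds with another member. The only shared seeds with more than 1 member called under everolimus were GCUACAU, with MIR221 and MIR222, and UCACAGU, with MIR27A and MIR27B, both in HSC-1.

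Since a probe set may read the host, the host transcripts were set beside their microRNA genes. A position was known for 333 members, 206 lay in a gene on the same strand, and 117 could be paired with a tested host. In HSC-1 under everolimus 10 of these members passed the threshold, and the host passed in 25 of the 117 pairs. The host passed in the same direction for 4, MIR23B and MIR27B with AOPEP, MIR1296 with JMJD1C and MIR2909 with AATF. MIR23B and MIR27B share that host, and a second probe set of MIR2909 differed by 0.11, the opposite sign. The host passed in the opposite direction for 1 and did not pass for 5. AOPEP, an aminopeptidase gene, read 7.75, 7.62 and 7.67 in HSC-1 with DMSO and 7.89, 7.93 and 7.86 with everolimus (0.22 ± 0.06, adjusted p = 0.0126). In A431 it rose by 0.21 ± 0.06 (adjusted p = 0.0318), so the responses of AOPEP differed by 0.00 ± 0.08 where those of MIR23B differed by 1.01.

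SREBF1 went against MIR33B. It read 6.11, 6.15 and 6.12 in HSC-1 with DMSO and 5.88, 5.90 and 5.81 with everolimus (-0.26 ± 0.07, adjusted p = 0.00826), while MIR33B rose. VMP1, the autophagy gene next to and overlapping MIR21, differed by -0.12 ± 0.05 (adjusted p = 0.135) where MIR21 rose. In A431, 2 paired members passed: MIR5047, whose host DDX5 also rose (0.20 ± 0.04, adjusted p = 0.00339), and MIR3132, whose host OBSL1 differed by 0.01. For the difference between the responses 6 paired members passed, and the host of 0 of them did. The host passed in 17 of the 117 pairs for that difference and in 14 of the 117 in A431.

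Between the lines in DMSO, 34 paired members passed and the host in 78 of the 117 pairs, with the host of the 34 in the same direction for 22, in the opposite direction for 4 and not past the threshold for 8. MIR31 and its host MIR31HG differed by -1.09 each, and MIR27B and AOPEP by 1.42 and 1.39. The 22 include MIR3160-1 with AMBRA1, although a second probe set of MIR3160-1 differed by 0.36, the opposite sign. The 4 opposite pairs were MIR21 with VMP1 (0.44 and -0.49), MIR210 with MIR210HG (0.23 and -0.70), MIR3671 with JAK1 (-2.62 and 0.18) and MIR4453 with MIR4453HG. Across the 117 pairs the Pearson r of the 2 differences was 0.25 in A431, 0.30 in HSC-1 and 0.38 between the lines. The pairs share arrays, and some share a host.

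**Figure D5:**
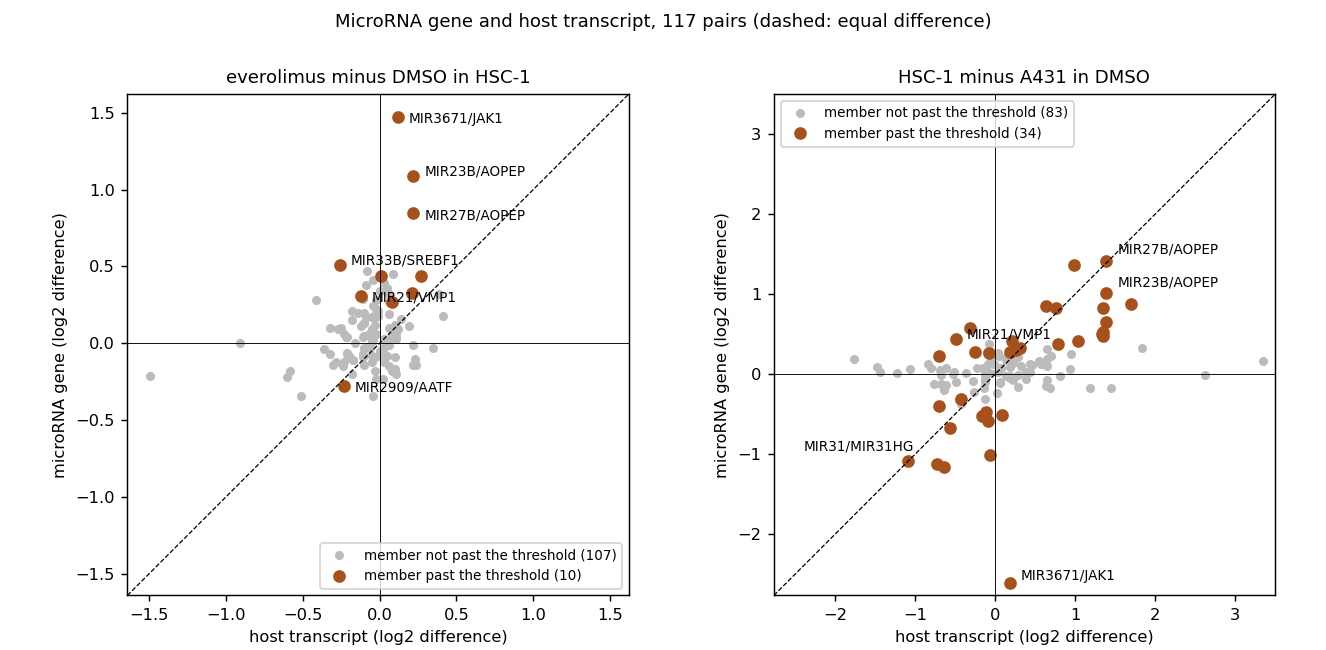
Log2 difference of the microRNA gene (vertical) against that of its host transcript (horizontal) for 117 pairs, for everolimus in HSC-1 (left, 10 members past the threshold) and for HSC-1 minus A431 in DMSO (right, 34 members past it), with the dashed line at equal differences. MIR23B and MIR27B lie far above the line on the left, at a host difference of 0.22, and MIR27B lies near it on the right.

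Of a list of 63 genes that make and use microRNAs, 38 had a named probe set and 36 were tested. Under everolimus 4 of the 36 passed in A431, or 11.1% beside 6.73% of all tested genes, and 7 in HSC-1, or 19.4% beside 18.6%. In A431, 3 rose (DDX5, DDX6 and SRSF3, by 0.15 to 0.20) and SRRT, a cap-bound partner of primary transcript cleavage, fell (-0.26 ± 0.07, adjusted p = 0.042). The list's median was 0.05 beside -0.0038 over all tested genes. In HSC-1, 4 rose and 3 fell, with a median of -0.01 beside -0.021. The exonuclease gene XRN1 (0.24 ± 0.05), the decay helicase gene DDX6 (0.21 ± 0.05), TNRC6B, which binds Argonaute (0.17 ± 0.06), and DDX17 (0.16 ± 0.05) rose. GEMIN4 (-0.30 ± 0.07), the decapping scaffold gene EDC4 (-0.24 ± 0.06) and KHSRP, an RNA-binding protein gene (-0.19 ± 0.06), fell.

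DGCR8, the partner of the nuclear cleavage enzyme, differed by 0.07 ± 0.07 in A431 and 0.11 ± 0.07 in HSC-1 (adjusted p = 0.682 and 0.35). XPO5, which exports hairpins, differed by 0.11 ± 0.05 and -0.13 ± 0.05 (adjusted p = 0.179 and 0.0698), and its responses differed between the lines (-0.24 ± 0.07, adjusted p = 0.025). DROSHA, DICER1 and AGO2 are not analysed here. Of a list of 79 known host transcripts, 37 were tested, and 2 rose and 2 fell in A431, 4 rose and 4 fell in HSC-1, and 17 were higher and 12 lower in HSC-1 than in A431. These are 10.8% of the list beside 6.73% of all tested genes in A431, 21.6% beside 18.6% in HSC-1 and 78.4% beside 59.4% between the lines. The greatest changes under everolimus were those of SREBF1 in A431 (-0.57 ± 0.07, adjusted p = 1.81e-05) and MIR181A2HG in HSC-1 (0.64 ± 0.11, adjusted p = 6.37e-04). MIR31HG fell in HSC-1 (-0.51 ± 0.09, adjusted p = 6.66e-04), where MIR31 differed by -0.34 ± 0.14 (adjusted p = 0.0984).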

How the data were processed

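RNA was measured on 12 Affymetrix arrays, 3 for each of 4 groups taken from the sample labels. The deposited table holds log2 signals per probe set. The submitters' processing notes name RMA and Affymetrix Expression Console for this step by the authors, with no versions, and the build is not stated in the sources used here. RMA equalizes array distributions, so a global shift in RNA content cannot be seen. The platform annotation named 16098 of 53617 probe sets, all of which were matched to RefSeq (GRCh38.p14) by Entrez identifier for current symbols. One probe set per gene, the one with the highest mean, was kept, and a gene was tested where at least 3 arrays lay above the array median. The model was a mean per group, fitted across genes in limma 3.58.1 (R 4.3.3) with lmFit and eBayes, an intensity trend and 8 residual degrees of freedom. Benjamini-Hochberg adjustment ran over 10613 genes. Host genes were those spanning the hairpin or mature arms on the same strand.

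Members and gene lists were chosen with earlier results of these data known. The members named are those past the threshold (at most 12 each way per everolimus comparison, 8 in the others), the 8 highest, those next to the level limit, their cluster and seed neighbours and hosts, and the listed processing and host genes past the threshold. MIR21 and the 9 smaller rises in HSC-1, the opposite host pairs and, between the lines, the let-7, MIR200C and MIR25 groups were named after their values were seen. On simulated data 200 genes, drawn at random from all 10613 tested genes, were changed as a test. In the simulated HSC-1 comparison 40.7% of changes of 0.3, 77.2% of 0.5 and 100% of 1 (log2) were recovered, with 5.44% of calls false. In the simulated A431 comparison these were 39.5%, 75.4% and 98.4%, with 8.11% of calls false. Fewer genes were changed than the 714 in A431 and 1977 in HSC-1 that passed in the real data. The adjustment depends on how many genes change, so these rates need not hold for the real data. Same-numbered arrays did not deviate together (18 correlations from -0.1545 to 0.07451), so the replicate number was not a block. Between differently numbered arrays of 2 groups the correlations ran from -0.1339 to 0.1734. Whether a grouping that does not follow the numbers underlies the higher ones was not tested. The alternatives were that block, other level filters, variance priors without trend or robust, array weights, quantile normalization again, median centring, averaging the probe sets of a gene, every probe set by itself, members above the median on all 12 arrays, 6 arrays alone, an adjusted p of 0.01, a 1.5-fold change and leaving out each array.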

Additional observations from a re-analysis of the deposited data

Results flagged for a closer look

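For 25 members the response to everolimus differed between HSC-1 and A431 by a test of the difference itself, the interaction term in limma at an adjusted p of 0.05. Each value is the response in HSC-1 less the response in A431, in log2 units.

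Of the differences, 17 were above 0. Those of the clustered genes were 1.01 for MIR23B, 0.75 for MIR27B, 0.55 for MIR24-2, 0.90 for MIR222 and 0.48 for MIR221. MIR3671, with all 3 HSC-1 DMSO arrays below the array median, had 1.72. MIR3936 had 1.10, MIR3132 0.87, MIR548H2 0.77, MIR1913 0.67, MIRLET7I 0.62 and MIR612 0.62. MIR9-1 had 0.60, MIR324 0.55, MIR570 0.53, MIR205 0.53 and MIR4533 0.31.

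The 8 below 0 were -0.74 for MIR3928, -0.69 for MIR648, -0.59 for MIR924, -0.59 for MIR3159, -0.50 for MIR3939, -0.47 for MIR4746, -0.47 for MIR4292 and -0.41 for MIR2909. Averaged over their probe sets, MIR4292 (adjusted p = 0.112) and MIR2909 (adjusted p = 0.0662) did not pass in limma.

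In 9 of the 25 neither line's own effect passed the threshold, MIR24-2, MIR9-1, MIR324, MIR1913 and MIR3928 among them.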

How the results depend on the processing

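Counts of called members moved with the variance model, the unit of the fit and the threshold. In A431 the 7 became 2 without an intensity trend, 12 with array weights, 1 with every probe set fitted by itself, 0 at an adjusted p of 0.01 in limma (43 at an unadjusted p under 0.05) and 0 with a 1.5-fold change, and leaving out 1 array gave 2 to 12. In HSC-1 the 29 became 45 with array weights, 19 with every probe set, 18 at an adjusted p of 0.01 and 8 with a 1.5-fold change, with 21 to 35 when 1 array was left out. The 25 differences between the responses became 14 without the trend, 8 with every probe set, 8 at an adjusted p of 0.01 and 15 with a 1.5-fold change, with 18 to 30 when 1 array was left out. Between the lines the 105 became 41 with a 1.5-fold change, with 91 to 117 when 1 array was left out. The cause was not tested.

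With the replicate number as a block the counts were 6, 29, 23 and 102. MIR205 in A431, MIR3928 and MIR4292 were then lost, and no other named member was. The shared numbers were not taken as pairing, since 0 of 18 same-number correlations exceeded 0.1. Some between differently numbered arrays did, up to 0.1734, and no block in the fit covered such a grouping. No named member changed direction under the alternatives fitted for it, 21 for each named member except MIR3928 in the difference between the responses, with 20. All of them passed for 0 of 7 members named in A431, 12 of 18 in HSC-1, 7 of 16 for the difference between the responses and 16 of 16 between the lines. With 3 arrays in a group, changes near 0.3 were often missed in the simulated data, whose changed genes were drawn from all tested genes. Fewer genes were changed there than passed in the real data, so the rate of misses may differ in the real data. The members had a median SE of 0.13 beside 0.09 over all tested genes, and recovery among the members alone was not simulated.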
